A study of Mus musculus with 8 samples.

Results

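The BCL2 family and caspase genes described here are Mcl1, Bcl2l1, Bax, Bak1, Bcl2l11, Bid, Bbc3, Pmaip1 and Casp8. They were chosen by symbol, and all 9 were found among the 17276 genes of the files and passed the filter on low counts that left 11747 genes for testing. The study measured RNA of hepatocytes from male wild-type C57BL/6N mice aged 6 to 8 weeks. There were 4 libraries of cells kept static and 4 of cells exposed to shear stress, the drag of moving fluid on a cell surface. How strong the stress was and how long it lasted is not in the labels, nor whether libraries of a group came from separate animals or cultures, so the p-values measure only the spread between these libraries, which may be technical. Replicate numbers 1 to 4 occur in both groups and were read as pairs.

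Proteins of the BCL2 family decide whether the outer membrane of the mitochondrion stays intact. BAX and BAK open it, MCL1 and BCL-xL (the product of Bcl2l1) hold them back, and the BH3-only proteins BIM (Bcl2l11), BID, PUMA (Bbc3) and NOXA (Pmaip1) tip the balance towards opening. Caspase 8 is the protease that death receptors activate, and it cleaves BID to link the receptors to the mitochondria. Hepatocytes depend on MCL1 and BCL-xL for survival and need BID for an efficient response to death receptors.

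Under shear stress Casp8, Bid and Bak1 rose and Mcl1, Bcl2l11 and Bax fell, while Bcl2l1, Bbc3 and Pmaip1 did not pass the test. Thus 3 of the 9 genes were called higher, against 24.9% of all tested genes, and 3 were called lower, against 23.7%. The calls of Bcl2l11 and Bax were lost under other scalings of the libraries, as given below. Over both directions 48.6% of tested genes were called. The groups did not overlap in normalised counts for 6 of the 9 genes, against 45.3% of tested genes, and the 4 pairs moved one way for 8 of the 9, against 68.9%. With so many genes changed in these libraries, the count of called genes is not in itself a result about the family. What follows gives the direction and size for each gene. With the replicate number as a block, which called 61.1% of tested genes, 3 of the 9 were called higher, against 30.1% of tested genes, and 5 lower, against 31.0%.

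Of the promoter windows below, 2 are shown because they hold letters that match a motif of FOXO transcription factors. They belong to the BH3-only genes Bcl2l11 and Bbc3. These 2 were picked for the letters, so holding them is not a result. Of the FOXO genes, Foxo3 fell and Foxo1 rose. The other 2 windows belong to the genes with the largest called fall and rise, Mcl1 and Casp8. Each window is the 250 bases before an annotated start, from RefSeq (GRCm38.p6), written 5′ to 3′ on the strand of the gene. Capitals mark matches on either strand to 4 motifs: FOXO (GTAAACA), AP-1 (TGANTCA), CRE (TGACGTCA) and the GC box (GGGCGG).
Bcl2l11, chr2:128125788-128126037, + strand: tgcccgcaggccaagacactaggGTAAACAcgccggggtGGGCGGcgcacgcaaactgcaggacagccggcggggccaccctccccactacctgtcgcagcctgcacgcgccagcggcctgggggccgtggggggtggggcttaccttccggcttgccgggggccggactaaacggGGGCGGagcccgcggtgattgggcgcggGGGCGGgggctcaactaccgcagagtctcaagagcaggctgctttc
Bbc3, chr7:16310011-16310260, + strand: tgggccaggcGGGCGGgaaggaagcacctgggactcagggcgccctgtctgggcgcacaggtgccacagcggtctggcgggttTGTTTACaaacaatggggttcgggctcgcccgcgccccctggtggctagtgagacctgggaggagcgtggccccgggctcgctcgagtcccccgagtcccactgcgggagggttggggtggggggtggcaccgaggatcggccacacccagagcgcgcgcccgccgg
Mcl1, chr3:95658471-95658720, + strand: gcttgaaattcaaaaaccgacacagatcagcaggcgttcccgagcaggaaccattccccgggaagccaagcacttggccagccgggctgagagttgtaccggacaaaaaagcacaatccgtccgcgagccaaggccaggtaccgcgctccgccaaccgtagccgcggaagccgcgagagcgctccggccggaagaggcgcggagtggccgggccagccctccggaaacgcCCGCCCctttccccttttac
Casp8, chr1:58802252-58802501, + strand: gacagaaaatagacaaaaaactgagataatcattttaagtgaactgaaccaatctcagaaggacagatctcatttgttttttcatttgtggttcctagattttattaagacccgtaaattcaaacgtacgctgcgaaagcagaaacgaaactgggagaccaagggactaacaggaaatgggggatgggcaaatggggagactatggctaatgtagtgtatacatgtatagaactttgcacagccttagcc

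The Bcl2l11 window held GTAAACA from 227 bases before the start (chromosome 2, 128125811 to 128125817) and 3 GC boxes. The Bbc3 window held the FOXO letters on the opposite strand, as TGTTTAC, from 167 bases before the start (chromosome 7, 16310094 to 16310100). Its start is one of 3 listed for Bbc3 and lies inside the gene. The Mcl1 window held 1 GC box and the Casp8 window none of the 4 motifs. The Mcl1 and Casp8 starts are also internal, since the annotated genes begin at 95656944 on chromosome 3 and 58795233 on chromosome 1. Windows were listed for 8 of the 9 genes, 13 in all. The FOXO letters were in these 2 of the 13 and in 3.17% of all 32851 windows of this length, AP-1 and CRE in none of the 13 and in 6.75% and 1.55% of all, and the GC box in 8 of the 13 and in 32.7% of all. Bcl2l11, Bcl2l1 and Bbc3 gave several windows each, and some of those of Bbc3 overlap, so the 13 are not separate genes. These matches describe letters only, and no binding was measured.

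Levels between genes are compared in TPM, the deposited abundance unit that scales each library to a fixed number of transcripts, and which allows for transcript length. In static libraries Bax was the most abundant at 216 ± 35.9 TPM (SD, n = 4), followed by Mcl1 at 124 ± 19.5, Bcl2l1 at 76.1 ± 12.5 and Bak1 at 35.9 ± 7.01 TPM. The libraries of neighbours in this order did not overlap. Bcl2l11 (13.04 ± 2.84 TPM), Bid (10.5 ± 2.19), Casp8 (9.53 ± 0.732) and Bbc3 (9.24 ± 4.83) came next, each overlapping its neighbour in this order, and Pmaip1 was far below at 0.518 ± 0.26 TPM. Under shear stress the order was Bax (203 ± 24.5 TPM), Bcl2l1 (98.9 ± 4.49), Mcl1 (82.5 ± 6.56), Bak1 (73.1 ± 9.94), Casp8 (24.4 ± 2.56), Bid (23.2 ± 3.84), Bcl2l11 (9.93 ± 3.27), Bbc3 (7.5 ± 2.26) and Pmaip1 (0.26 ± 0.115). Mcl1 and Bak1 overlapped there, as did Casp8 and Bid, and Bcl2l11 and Bbc3. Mcl1 and Bcl2l1 thus stood in the opposite order in the groups. The summed TPM of the 9 genes ranged from 454 to 590.0 in static and from 497 to 575 in shear stress libraries.

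Changes over the groups are given as normalised CPM, the library-scaled counts after trimmed-mean (TMM) factors. Each difference is a log2 ratio, shear stress against static, ± its standard error, tested by edgeR (quasi-likelihood), and its p is adjusted by the Benjamini-Hochberg method. TPM and TMM scaling differ: the median tested gene had a 1.16-fold higher mean TPM under shear stress (0.22 on the log2 scale), against a median log2 fold change of -0.01 in the edgeR fit. Directions below are relative to the TMM factors.

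**Figure D1:**
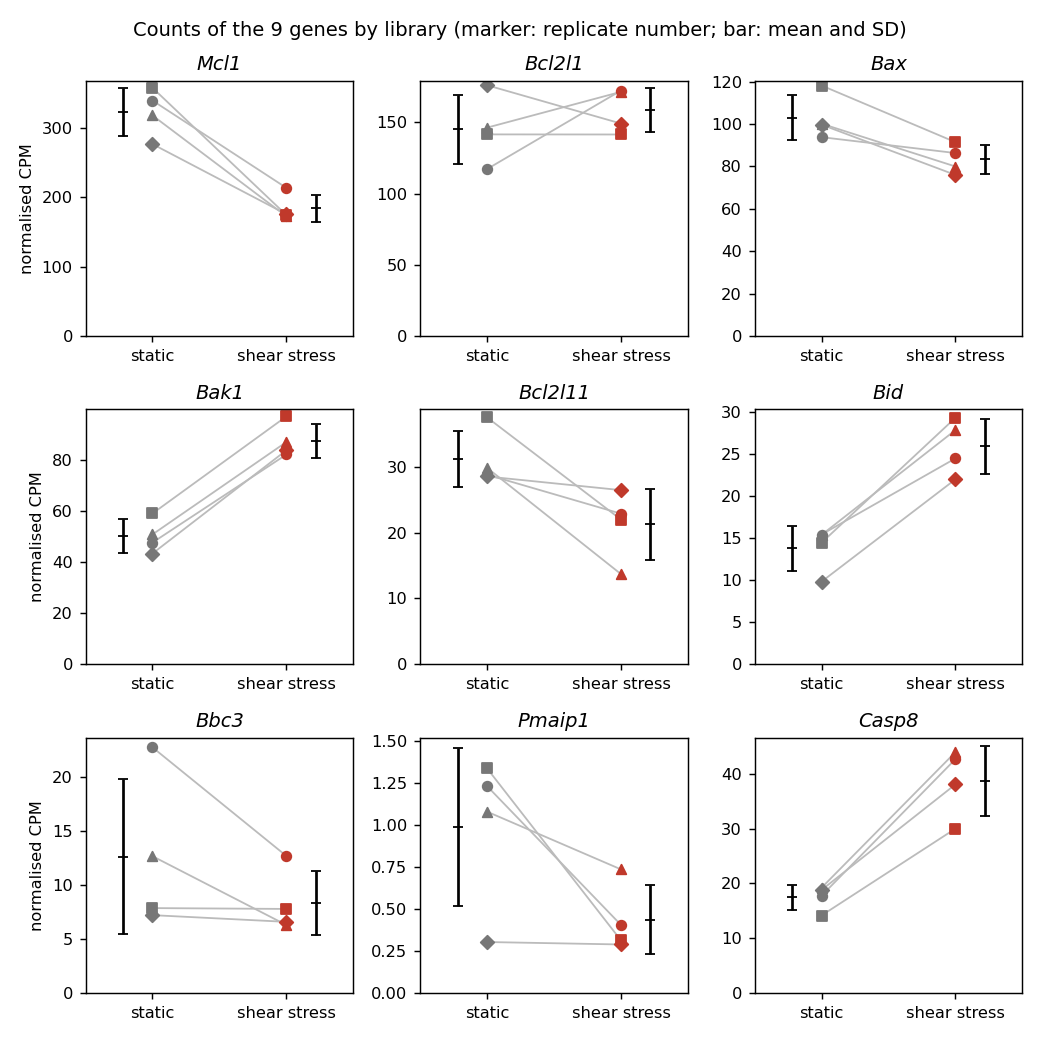
Normalised CPM (y axis, from 0) of each of the 9 genes in the 4 static (grey) and 4 shear stress (red) libraries. Lines join libraries of the same replicate number (circle 1, square 2, diamond 3, triangle 4), and bars give the mean and SD. Casp8, Bid and Bak1 lie higher under shear stress in all 4 pairs and Mcl1 lower in all 4, whereas the Bcl2l1 lines cross.

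Mcl1 (Gene ID 17210; chromosome 3, 95656944 to 95663179) encodes a short-lived survival protein. Its normalised CPM was 339.9, 358, 277 and 318 in static replicates 1 to 4 and 214, 174.5, 176 and 173 in shear stress replicates 1 to 4. Every shear stress library lay below every static one, with replicate 1 standing above the other 3 under stress. Mcl1 fell 1.76-fold (-0.81 ± 0.11, adjusted p = 0.000435).

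Bcl2l1 (Gene ID 12048; chromosome 2, 152758732 to 152833803), whose long splice form BCL-xL protects cells, was at 117, 141, 176 and 146 CPM in static and 172, 141, 149 and 171 CPM in shear stress replicates. The groups overlapped, and 2 of 4 pairs were higher under stress. The difference was 0.13 ± 0.13 (95% interval -0.16 to 0.42, adjusted p = 0.446 by the edgeR test). The call depends on the scaling. With library totals the change was 0.35 (adjusted p = 0.0307), and in the deposited TPM Bcl2l1 was at 59.2 to 89.2 in static and 94.4 to 103 in shear stress libraries, with no overlap (0.39, adjusted p = 0.0294 by limma on log2(TPM + 1)). The files count whole genes, so the short and long splice forms are not separated.

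Bax (Gene ID 12028; chromosome 7, 45461695 to 45466903) was at 93.8, 118, 99.7 and 100.2 CPM in static and 86.3, 91.5, 76.0 and 79.99 CPM in shear stress replicates. The groups did not overlap, but their nearest libraries differed by little. Bax fell by 0.30 ± 0.10 on the log2 scale (adjusted p = 0.0324). Leaving out shear stress replicate 1 (adjusted p = 0.0719), 3 (0.083) or 4 (0.0898), or static replicate 2 (0.0691), ended this call, as did upper quartile factors (-0.16, 0.211), library totals (-0.08, 0.624) and TPM (-0.08, 0.646). A predicted gene on the same strand, Gm45808, overlaps Bax by 915 bases in GENCODE M21.

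Bak1 (Gene ID 12018; chromosome 17, 27019812 to 27028627), the other pore-forming effector, was at 47.6, 59.0, 43.4 and 50.8 CPM in static and 82.1, 97.0, 83.7 and 87.0 CPM in shear stress replicates. The lowest library under stress lay well above the highest static one. Bak1 rose 1.74-fold (0.80 ± 0.11, adjusted p = 0.000487). Bak1 lies within Ggnbp1 on the opposite strand, which had between 4 and 17 counts per library, and whether counting used the strand is not given in the sources used here.

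Of the effectors, Bak1 thus rose under all alternatives, whereas the TPM of Bax overlapped between the groups, at 189 to 269 in static and 188 to 239 in shear stress libraries.

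Among the BH3-only genes, Bid (Gene ID 12122; chromosome 6, 120893119 to 120917062), which caspase 8 cleaves into its active form, was at 15.5, 14.5, 9.85 and 15.4 CPM in static and 24.5, 29.4, 22.04 and 27.9 CPM in shear stress replicates. Static replicate 3 was the lowest, and the groups did not overlap. Bid rose 1.88-fold (0.91 ± 0.16, adjusted p = 0.00171). Its GENCODE model shares 2094 bases with the predicted gene Gm44260 on the same strand, which is not among the counted genes. It also shares 913 bases with Bcl2l13 on the opposite strand, which had between 852 and 1131 counts per library. Bcl2l13 was not called (-0.28 ± 0.12, adjusted p = 0.0704) but was lower with the replicate block (-0.29 ± 0.09, adjusted p = 0.0167). Any part of these overlaps in the counts of Bid was not tested.

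Bcl2l11 (Gene ID 12125; chromosome 2, 128126038 to 128162547), the gene of BIM, was at 28.8, 37.5, 28.5 and 29.8 CPM in static and 22.9, 21.97, 26.4 and 13.7 CPM in shear stress replicates. Static replicate 2 stood high and shear stress replicate 4 low, and the groups did not overlap. Bcl2l11 fell 1.47-fold (-0.55 ± 0.19, adjusted p = 0.0368). Leaving out shear stress replicate 1 (adjusted p = 0.0628), 2 (0.066) or 4 (0.0577), or static replicate 1 (0.0504), 2 (0.0912) or 4 (0.0567), ended the call. It was also lost with upper quartile factors (-0.42, 0.0954), library totals (-0.33, 0.197) and TPM (-0.40, 0.189), always with a value below 0.

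Bbc3 (Gene ID 170770; chromosome 7, 16308398 to 16318334), the gene of the p53 target PUMA, was at 22.7, 7.85, 7.2 and 12.7 CPM in static and 12.7, 7.78, 6.58 and 6.28 CPM in shear stress replicates. Replicate 1 was the highest of its group in both, and the groups overlapped. The difference was -0.60 ± 0.39 (95% interval -1.47 to 0.27, adjusted p = 0.226). Without static replicate 1 it was -0.16 (adjusted p = 0.7), and in TPM -0.19 (adjusted p = 0.636 by limma). It was lower under stress in all 4 pairs, and with the replicate block Bbc3 fell (-0.52 ± 0.19, adjusted p = 0.0367).

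Pmaip1 (Gene ID 58801), the gene of NOXA, which binds MCL1, had 20, 23, 4 and 18 estimated counts in static and 7, 6, 5 and 13 in shear stress replicates. Static replicate 3 and shear stress replicates 1 to 3 were within 7 counts, near the 3 taken as the detection floor, and the groups overlapped through static replicate 3. The difference was -1.19 ± 0.48 (adjusted p = 0.0646). With the replicate block Pmaip1 fell (-1.17 ± 0.41, adjusted p = 0.0297), and it was also called without static replicate 3 (-1.47, 0.015) or shear stress replicate 4 (-1.56, 0.0433).

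Casp8 (Gene ID 12370; chromosome 1, 58795233 to 58847503) had the largest called change of the 9. It was at 17.7, 14.1, 18.8 and 19.2 CPM in static and 42.7, 30.0, 38.1 and 44.0 CPM in shear stress replicates. Replicate 2 was the lowest in both groups, and the groups were far apart. Casp8 rose 2.22-fold (1.15 ± 0.15, adjusted p = 0.000357). The predicted gene Gm37760 on the same strand overlaps Casp8 by 3841 bases in GENCODE M21 and is not among the counted genes.

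**Figure D2:**
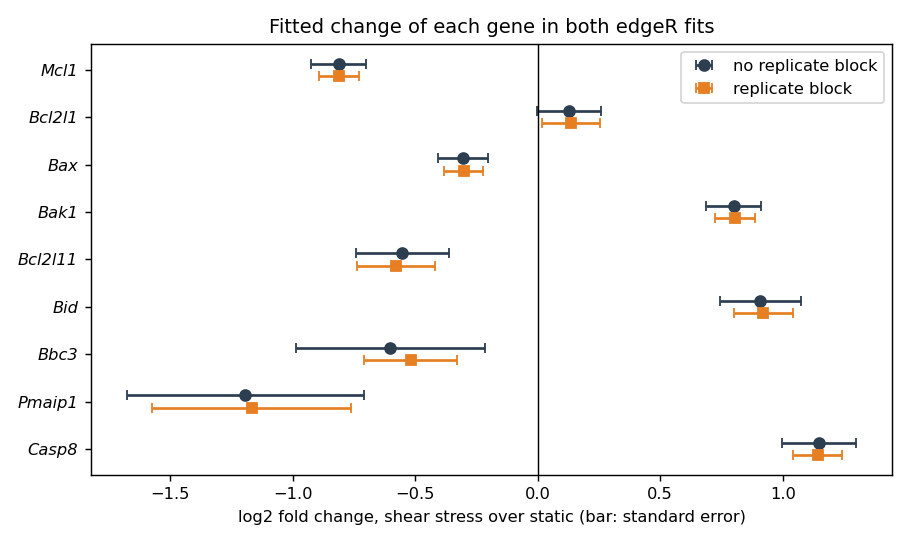
Log2 fold change of shear stress over static (x axis) for each of the 9 genes, as fitted by edgeR without (circles) and with (squares) the replicate number as a block. Bars are standard errors. The estimates of both fits lie close together, and the bars of Bbc3 shorten most, from 0.39 to 0.19.

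Ratios of TPM within a library need no scaling between libraries. Mcl1 to Bcl2l1 was 2.1, 1.87, 1.15 and 1.57 in static and 0.879, 0.899, 0.842 and 0.723 in shear stress replicates 1 to 4, so that Mcl1 was the more abundant in all static and the less abundant in all shear stress libraries. Bak1 to Mcl1 averaged 0.289 ± 0.0194 (SD, n = 4) when static and 0.89 ± 0.133 under stress, with no overlap. Bax to Bcl2l1 was 2.88 ± 0.504 and 2.06 ± 0.322, and the groups overlapped. Bcl2l11 to Mcl1 was 0.105 ± 0.00812 and 0.12 ± 0.0378, also with overlap. It was 0.106, 0.139, 0.159 and 0.0734 in shear stress replicates 1 to 4. Both genes had a lower mean TPM under stress. These ratios are descriptions without a test.

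**Figure D3:**
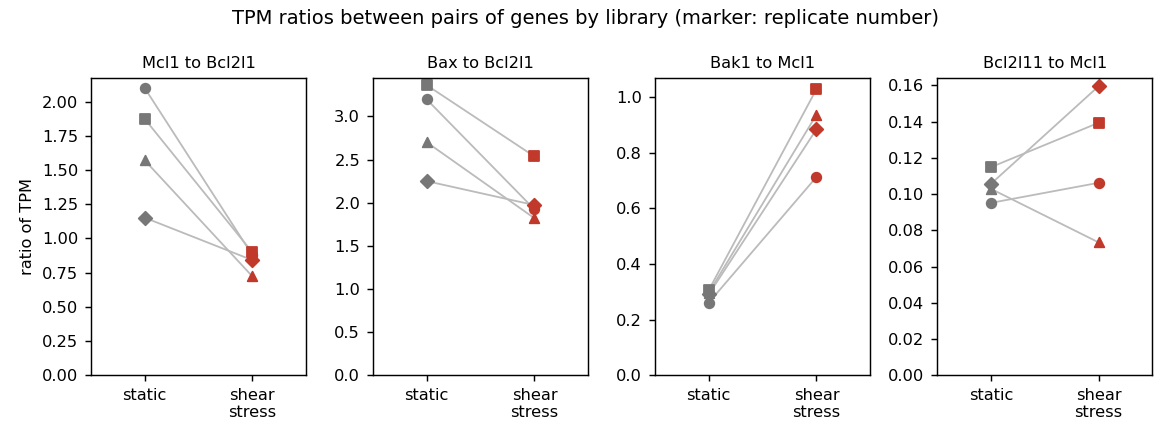
Ratio of TPM between pairs of genes (y axis, from 0) in each library, static in grey and shear stress in red, with lines joining the same replicate number (circle 1, square 2, diamond 3, triangle 4). Mcl1 to Bcl2l1 lies above 1 in the static and below 1 in the shear stress libraries, and Bak1 to Mcl1 is higher under stress in all 4 pairs.

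Around these genes, 72 further genes of the apoptosis machinery were listed in 11 groups. The files held 71 and 54 were tested, of which 12 rose, 14 fell and 28 were not called, with a median log2 fold change of 0.05 against -0.01 for all tested genes. Of all tested genes 24.9% rose and 23.7% fell, so these shares are near the background. With the replicate block 15 of the 54 rose and 19 fell, against 30.1% and 31.0% of all tested genes. The falls numbered 8 when shear stress replicate 4 was left out or upper quartile factors were used, and 6 on library totals or TPM.

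Of 6 other survival genes of the BCL2 family, Bcl2 and Bcl2l2 were tested and neither was called. Bcl2l2, the gene of BCL-w, was at 39.8 ± 6.85 CPM in static and 36.7 ± 1.59 in shear stress libraries (-0.12 ± 0.13, adjusted p = 0.484), a value above 0 with upper quartile factors, library totals or TPM. Bcl2 had between 5 and 19 counts per library, and the 3 Bcl2a1 genes had at most 1. Of 7 other BH3-only and effector-like genes, 1 rose and 3 fell. Bok, a relative of BAX and BAK, rose from 1.17 ± 0.439 to 4.13 ± 1.1 CPM (adjusted p = 0.0014). Bnip3l, a receptor of mitophagy, fell 1.48-fold from 145 ± 7.4 CPM (adjusted p = 0.000747), and Hrk fell from between 18 and 47 to between 3 and 11 counts per library (adjusted p = 0.00352). Of 4 less studied relatives, Bcl2l12 rose 2.89-fold to 6.68 ± 0.972 CPM (adjusted p = 0.000289) and Bcl2l15 fell from between 23 and 74 to between 1 and 6 counts (adjusted p = 0.000555). Falls among these relatives numbered 2 with the replicate block or without shear stress replicate 3.

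Among the caspases, Casp8 and Casp2 were the ones called. Of 5 other apoptotic caspases, Casp2 rose 2.26-fold from 3.08 ± 0.553 to 6.99 ± 1.16 CPM (adjusted p = 0.00131). With the replicate block or library totals 2 of the 5 rose, and with TPM 3. Casp1, Casp4 and Casp12, which serve inflammatory and stress responses, had at most 14 counts in any library and were not tested.

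Of 8 genes of the apoptosome and of proteins released from mitochondria, 2 rose and 1 fell. Apaf1, which assembles the apoptosome, rose 1.51-fold to 18.9 ± 0.707 CPM (adjusted p = 0.00227), and Htra2, a mitochondrial protease that antagonises inhibitors of apoptosis, rose 1.62-fold to 25.3 ± 1.02 CPM (adjusted p = 0.00375). Aifm1 fell by 0.30 ± 0.10 on the log2 scale (adjusted p = 0.0376). Upper quartile factors, library totals and TPM ended that call, as did leaving out shear stress replicate 2, 3 or 4, or static replicate 1, 2 or 3 (adjusted p from 0.0567 to 0.621). Of 9 inhibitors of apoptosis, 5 were tested and 2 rose, Naip2 2.11-fold (adjusted p = 0.000811) and Birc3 1.35-fold (adjusted p = 0.00994). With the replicate block 3 rose and 1 fell. Naip2 has close paralogs, so its share of reads is uncertain.

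Of 7 genes of death receptors and their ligands, which act upstream of caspase 8, 4 receptors were tested and all were called, where 48.6% of all tested genes were. Tnfrsf1b, the second receptor of tumour necrosis factor, which lacks a death domain, rose 2.17-fold from 28.1 ± 4.88 to 60.8 ± 5.07 CPM (adjusted p = 0.000225). Tnfrsf10b, the receptor of TRAIL, rose 1.76-fold to 18.4 ± 5.12 CPM (adjusted p = 0.0108), although the groups overlapped. Tnfrsf1a, the first receptor of tumour necrosis factor, fell 1.39-fold from 159 ± 17.2 CPM (adjusted p = 0.00407), a call lost with library totals (adjusted p = 0.0543) or TPM (0.0579). The other fall was that of Fas, named because it completes the 4 (-0.61 ± 0.20, adjusted p = 0.0281). Of these falls 1 was left on upper quartile factors, or when shear stress replicate 1, 3 or 4, or static replicate 2 or 4, was left out, and 0 on library totals or TPM.

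Of 9 adaptor and necroptosis genes, 8 were tested, 2 rose and 3 fell. Fadd, which recruits caspase 8 to death receptors, rose 1.6-fold from 9.17 ± 1.38 to 14.7 ± 1.39 CPM (adjusted p = 0.00388). Ripk1, a kinase that can steer cells to survival or death, fell 1.68-fold from 80.4 ± 4.89 to 47.7 ± 4.64 CPM (adjusted p = 0.000334). Cyld fell 1.47-fold (adjusted p = 0.0291), a call that ended on upper quartile factors, library totals or TPM, or when shear stress replicate 2, 3 or 4, or static replicate 1 or 2, was left out (adjusted p from 0.062 to 0.285). There were 5 falls with the replicate block, and 1 on upper quartile factors, library totals or TPM, or when shear stress replicate 3 or 4, or static replicate 1 or 2, was left out. There was 1 rise with no filter, or when shear stress replicate 2, 3 or 4, or static replicate 1 or 3, was left out. Ripk3, the kinase of necroptosis, had between 2 and 9 counts per library and was not tested.

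**Figure D4:**
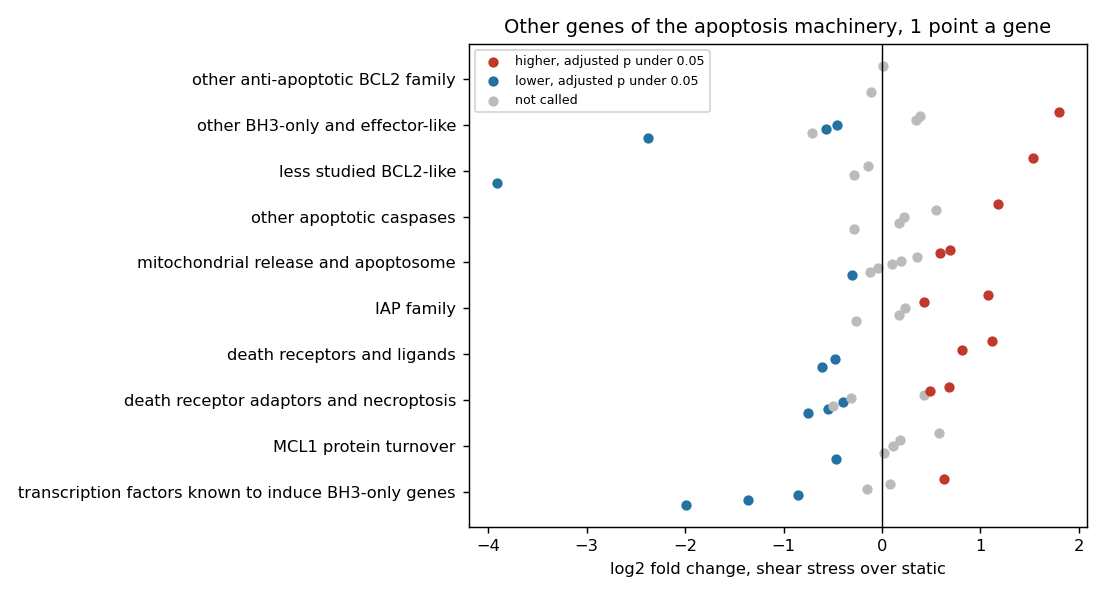
Log2 fold change of shear stress over static (x axis) for the 54 tested genes around the BCL2 family, 1 point a gene, grouped by role (y axis). Red points rose (12), blue points fell (14) and grey points (28) were not called at an adjusted p of 0.05 by edgeR.

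Of 6 genes for the turnover of MCL1 protein, 5 were tested and 1 fell. Huwe1, a ubiquitin ligase of MCL1, was at 518 ± 55.6 and 375 ± 29.0 CPM (-0.47 ± 0.10, adjusted p = 0.00506), and the call was lost with library totals (adjusted p = 0.085) or TPM (0.179). Of 7 transcription factors known to induce BH3-only genes, 6 were tested, 1 rose and 3 fell. Foxo3 is a known activator of Bcl2l11 and Bbc3, and 2 of the windows shown above were chosen for its motif letters. Foxo3 was at 40.9, 49.9, 67.5 and 39.1 CPM in static and 19.8, 19.4, 18.6 and 19.1 CPM in shear stress replicates. The groups did not overlap, and Foxo3 fell 2.56-fold (adjusted p = 0.000273). Any link between Foxo3 and the levels of Bcl2l11 or Bbc3 was not tested. Foxo1 rose 1.54-fold (adjusted p = 0.019), a call lost without static replicate 1 (0.0516) or 4 (0.0503). Its groups overlapped, and 3 of 4 pairs were higher under stress. Jun fell 3.97-fold from 470 ± 110 to 118 ± 20.4 CPM (adjusted p = 8.71e-05). Trp53, the gene of p53, named as the known regulator of Bax, Bbc3 and Pmaip1, was not called (0.08 ± 0.10, adjusted p = 0.52).

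The genes most alike in pattern to the 3 most abundant members were taken by Pearson correlation of log2 CPM over the 8 libraries, which share the contrast between groups, among 9174 genes. For Bax they were Chpf2 (r = 0.987), Gnptg (0.98) and H2-Q4 (0.9746). For Mcl1 they were Ccdc149 (0.987), Mafk (0.987) and Cmpk2 (0.986). For Bcl2l1 they were Gpr108 (0.932), Txn2 (0.883) and Dcun1d3 (0.872).

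Estimated counts per library totalled 15067056 to 17935566 (static) and 16225843 to 16732203 (shear stress), at which 3 counts correspond to between 0.157 and 0.227 CPM. Markers of hepatocytes summed to between 49043 and 61636 TPM in static and between 37159 and 52583 TPM in shear stress libraries, over 6 of 7 genes. Of these 6 genes, 5 fell under stress, against 23.7% of all tested genes. The falls ran from -0.55 ± 0.17 (Apoa1, adjusted p = 0.0219) to -0.97 ± 0.33 (Cps1, adjusted p = 0.0368). Hnf4a was not called (0.13 ± 0.19, adjusted p = 0.59). Macrophage markers (7 of 8 genes) summed to between 27.1 and 68.1 and between 25.1 and 78.4 TPM, nearly all from Cd68, with Adgre1 and Clec4f at or below 0.15 TPM. Endothelial markers (7 of 7) summed to between 5.02 and 10.1 and between 4.08 and 11.7 TPM. Of these, Pecam1 fell from between 95 and 233 to between 21 and 68 counts per library (adjusted p = 0.00324), and Oit3 was higher with the replicate block (1.08 ± 0.26, adjusted p = 0.00485). Pecam1 was the only one of the 6 tested endothelial markers called without the block. The other 5 had values above 0: Kdr 0.33, Stab2 0.43, Lyve1 0.38, Cdh5 0.73 and Oit3 1.03. The median log2 fold change of the 6 was 0.41. Stellate cell markers (6 of 6) summed to between 2.12 and 6.9 and between 2.35 and 3.8 TPM. Of these, Dcn was lower with the replicate block (-0.72 ± 0.23, adjusted p = 0.022). Leukocyte markers (4 of 6) summed to between 3.08 and 4.08 and between 0 and 0.89 TPM. Among the leukocyte markers Cd79a fell from between 23 and 37 to between 0 and 8 counts per library (adjusted p = 0.00172). Cholangiocyte markers (4 of 5) summed to between 91.5 and 1311 and between 247 and 1952 TPM, nearly all from Spp1, with Krt19 between 0 and 0.43 TPM. With the replicate block Spp1 (0.65 ± 0.24, adjusted p = 0.0467) and Epcam (1.01 ± 0.40, adjusted p = 0.0499) were higher. Neither was called without the block. The part of these cells in the changes above was not tested. In RNA from many cells, fewer cells of a type and less RNA per cell cannot be told apart.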

How the data were processed

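RNA of 8 hepatocyte libraries (4 static, 4 shear stress) was extracted with TRIzol and sequenced on the DNBSEQ platform, per the labels. HISAT, Bowtie2, RSEM and the build GRCm38 (mm10) are named in the submitters' processing notes. The sources used here give no versions, annotation or use of strand. The deposited files hold expected counts, TPM and FPKM, which the authors computed per gene, as the headers of the deposited files say. FPKM was not used. RSEM divides reads between similar genes by estimated probability, and 9.31% to 10.7% of the deposited expected counts per library were not whole (tolerance 1e-09).

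Expected counts were rounded, filtered with filterByExpr, scaled with TMM factors and tested with glmQLFit and glmQLFTest (robust) of edgeR 4.0.16 in R 4.3.3, without a block. P-values were Benjamini-Hochberg adjusted over the 11747 tested genes, and called under 0.05. A standard error is the absolute log2 ratio divided by the square root of F. Alternatives were upper quartile factors, library totals, DESeq2 1.42.0, no filter, the replicate block, each library left out and, added after seeing the data, limma 3.58.1 on log2(TPM + 1). Promoter windows and coordinates are from RefSeq tables of GRCm38.p6, and overlaps from GENCODE M21.

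Replicate numbers were taken as pairs. After removal of group means, same-numbered libraries correlated at 0.467 to 0.679 over 8446 genes, while differently numbered ones reached at most -0.0178. Removing the means of 4 libraries pushes the latter below 0 when the former are above it, so they add no separate support. Blocked values stand beside the members whose call they change and list counts they move by over 1.5 times.

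Members and lists were chosen with earlier results of these data known. Named genes were the 9 members, up to 3 called genes of each list by smallest p or, where none was called, the member with most counts, and for the 3 members with most TPM the 3 genes most correlated over the libraries (mean of at least 5 CPM, no predicted-gene names). Bad, Cflar, E2f1, Fas and Tradd were called but not named by this rule, and Bcl2, Bcl2l13, Casp1, Casp12, Fas, Ripk3, Trp53 and the cell type markers were named outside it, after their values were seen. Casp14 was not analysed here, and 1 gene of the lists is not reported by name.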

Additional observations from a re-analysis of the deposited data

Results flagged for a closer look

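For each named gene in the files, the highest and the lowest library of each group were compared with the other 3 by Dixon's ratio at its 95% critical value. Of 64 groups of 4 libraries, 4 had a library set apart, where chance gives about 1 in 20. Mcl1 was highest in shear stress replicate 1, at 213.8 normalised CPM, against 172.7 to 175.8 in the other 3. Bcl2l11 was highest in static replicate 2, at 37.47 CPM, against 28.5 to 29.82. Fadd was highest in the same static library, at 11.23 CPM, against 8.262 to 8.688. Jun was highest in shear stress replicate 2, at 148.8 CPM, against 106 to 110.3.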

How the results depend on the processing

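The rises of Casp8, Bid and Bak1 and the fall of Mcl1 kept their direction and their side of the threshold under all 14 alternatives. Their sizes moved with the scaling. Mcl1 was at -0.81 with TMM factors, -0.59 with library totals and -0.57 with TPM. Under these 3 scalings Bak1 was at 0.80, 1.02 and 1.01, Bid at 0.91, 1.13 and 1.08, and Casp8 at 1.15, 1.369 and 1.265. The number of the 9 genes called higher was 3 in all but library totals and TPM, where it was 4. The number called lower, 3, was 1 with upper quartile factors, library totals or TPM, 5 with the replicate block and between 1 and 4 when 1 library was left out. Of the wider genes called lower, 14, there were 8 with upper quartile factors, 6 with library totals or TPM, 16 with DESeq2, 19 with the replicate block and between 8 and 12 with 1 library left out. Those called higher, 12, numbered between 10 and 17. The difference of Bcl2l2 turned from -0.12 to 0.01825 (upper quartile factors), 0.1016 (library totals) and 0.3309 (TPM). In the same order, these moved the median over all tested genes by 0.14, 0.22 and 0.19 on the log2 scale, and the share of called genes that were higher from 51.2% to 64.8%, 73.0% and 74.9%. Of 434 values of 31 named genes under alternatives, 386 kept direction and call, 39 lost the call, 6 gained one and 3 turned sign. The replicate block changed the calls of Bbc3 and Pmaip1 and of no other gene named by the rule. The cause of the changes with scaling was not tested. With 4 to 23 counts per library, Pmaip1 is limited by depth. Left-out fits have 3 libraries in 1 group.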
